A study of Mus musculus with 27 samples.

Results

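Clec7a and 9 further genes that encode C-type lectin receptors of myeloid cells were followed across the series: Clec4a1, Clec4a2, Clec4a3, Clec4d, Clec4e, Clec4n, Clec5a, Clec12a and Cd209a. They were taken by symbol, as 10 of the 56691 genes in the count table. The rule uses no measured value, and the genes were proposed with earlier results of these data known. All 10 were found, and all 10 passed the filter on low counts. The samples were microglia, the resident macrophages of the brain, sorted by flow cytometry from tissue around the hematoma of WT mice. The mice were specific-pathogen-free (SPF) with no further treatment, treated with an antibiotic cocktail (ABX), or germ-free (GF). Intracerebral hemorrhage (ICH) was induced with collagenase and followed to day 3 or day 7, and sham animals received PBS. Each of the 9 groups had 3 libraries. The shams are labelled day 7, so a comparison of ICH day 3 with sham also differed in day. The agents of the cocktail, the markers used for sorting, and the strain, sex and age of the mice are not given in the sources used here. The labels do not say whether replicates came from separate animals, so p-values measure only the spread between these libraries.

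C-type lectin receptors bind sugars and other ligands on microbes and on dying cells. Dectin-1, the product of Clec7a, recognises beta-glucan of fungal cell walls and signals through its own cytoplasmic tail to the kinase Syk and the adaptor Card9, while Dectin-2 (Clec4n), Mincle (Clec4e), MCL (Clec4d) and MDL-1 (Clec5a) signal through the adaptors encoded by Fcer1g or Tyrobp. Clec4a2 and Clec12a encode inhibitory members that recruit phosphatases, and Clec7a is also widely used as a marker of the state that microglia enter beside amyloid plaques and dying neurons.

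Libraries held 41664864 to 79090595 counts, and levels are given as CPM, counts scaled to a common library size after TMM, a normalization that assumes most genes do not differ between libraries. A count of 0 allows up to 3 counts, which is at most 0.142 CPM in any library. Between 9185 and 18408 genes were detected per library. In 7 libraries fewer than 12000 genes were detected: the 3 day 7 libraries of GF mice with ICH, ABX day 7 replicates 1 and 2, and GF sham replicates 1 and 2. The common biological coefficient of variation was 1.54, and in GF ICH day 7 against GF sham the median log2 fold change of all 17573 tested genes was -2.10. Differences are from edgeR's quasi-likelihood test with Benjamini-Hochberg adjustment over all tested genes, called at an adjusted p under 0.05. In bulk libraries of sorted cells, fewer cells of a type and less RNA per cell cannot be told apart.

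In the GENCODE M21 annotation of GRCm38, 9 of the 10 genes lie on chromosome 6. Clec7a (ENSMUSG00000079293) is on the minus strand at chr6:129461591-129472779, where this release lists it as a polymorphic pseudogene, and Clec12a lies in the same Dectin-1 cluster, with 4 other listed lectin genes between them. Clec4a1, Clec4a3, Clec4a2, Clec4n, Clec4d and Clec4e lie in the Dectin-2 cluster, within 368 kb. Clec5a (ENSMUSG00000029915) stands apart at chr6:40574894-40585821, and Cd209a (ENSMUSG00000031494) is on chromosome 8, at chr8:3743397-3748984, both on the minus strand. The exons of all 10 genes had a GC content under the median of the tested genes, 49.0%, with a range from 36.8% for Clec4a2 to 45.4% for Clec4n. Clec7a, at 40.6%, stood at the 9.39th percentile of the tested genes. The 250 bases before the start of the 3 members that passed the test in at least 1 comparison are shown because their levels rose at day 7, as given further on. They are RefSeq windows of build GRCm38.p6, written 5′ to 3′ along the gene, at chr6:129472780-129473029 for Clec7a, chr6:40585806-40586055 for Clec5a and chr8:3748985-3749234 for Cd209a, all on the minus strand. Capitals mark GAGGAA on either strand, the core bound by PU.1, a transcription factor that macrophages and microglia depend on.
Clec7a: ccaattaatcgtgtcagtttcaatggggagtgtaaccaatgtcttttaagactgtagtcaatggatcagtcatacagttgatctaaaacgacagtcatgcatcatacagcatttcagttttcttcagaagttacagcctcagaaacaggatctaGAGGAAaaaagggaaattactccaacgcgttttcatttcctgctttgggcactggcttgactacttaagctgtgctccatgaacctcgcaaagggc
Clec5a: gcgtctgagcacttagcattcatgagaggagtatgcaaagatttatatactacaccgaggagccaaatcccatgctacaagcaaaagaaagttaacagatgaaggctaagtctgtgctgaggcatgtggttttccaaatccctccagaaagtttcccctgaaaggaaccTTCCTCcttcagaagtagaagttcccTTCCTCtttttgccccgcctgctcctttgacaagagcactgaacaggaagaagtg
Cd209a: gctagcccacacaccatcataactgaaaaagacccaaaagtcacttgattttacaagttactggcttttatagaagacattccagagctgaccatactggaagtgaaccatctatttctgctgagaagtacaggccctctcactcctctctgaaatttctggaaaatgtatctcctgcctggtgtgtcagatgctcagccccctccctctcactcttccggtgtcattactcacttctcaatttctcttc

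The Clec7a window held 1 such match, starting at position -96 from the start, the Clec5a window held 2, and the Cd209a window held none. Of the 10 genes, 9 had RefSeq windows, 11 in all, and 8 of these 11 windows, from 7 genes, held GAGGAA, against 23.3% of all 32851 windows of this length. TGANTCA, the AP-1 motif, was found in 1 of the 11, that of Clec12a, and in 6.75% of all windows, and CACGTG, an E-box, in 0 of the 11 and in 6.02% of all windows. Both strands were searched, and the motifs do not overlap each other in the windows shown. A match is a run of letters and not a measured binding site.

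Clec7a rose from sham to ICH day 7 in all 3 microbiota conditions (SPF, ABX and GF) and was highest at day 7 in ABX and GF mice. In SPF mice its level was 13.4, 29.2 and 20.4 CPM in the 3 sham libraries, 159, 139.7 and 119.9 CPM at day 3, and 373, 179 and 411 CPM at day 7. In ABX mice it was 21.9, 46.6 and 18.8 CPM in sham, 120.2, 154 and 55.5 CPM at day 3, and 1152, 1712 and 1127 CPM at day 7. In GF mice it was 7.29, 4.10 and 30.1 CPM in sham, 38.9, 134 and 38.9 CPM at day 3, and 1390.3, 2296 and 1443 CPM at day 7. In each microbiota condition every day 3 library lay above every sham library, and every day 7 library above every day 3 library. Ordered by group mean, the levels were 13.8 ± 14.2 (SD, n = 3, as for the means that follow) in GF sham, 20.99 ± 7.93 in SPF sham and 29.1 ± 15.2 in ABX sham. They went on, all at day 3, with 70.5 ± 54.7 for GF, 110.0 ± 50.2 for ABX and 139.6 ± 19.7 for SPF mice with ICH. The 3 highest means, all of day 7, were 321 ± 124 for SPF, 1330.5 ± 330.4 for ABX and 1709.8 ± 508 CPM for GF mice. Neighbours in this order overlapped in range, except SPF ICH day 3 with SPF ICH day 7 and SPF ICH day 7 with ABX ICH day 7. Per kilobase of exon, Clec7a stood between the 61.3th and 86.6th percentile of the tested genes in the sham libraries and between the 96.1th and 99.5th at day 7.

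**Figure D1:**
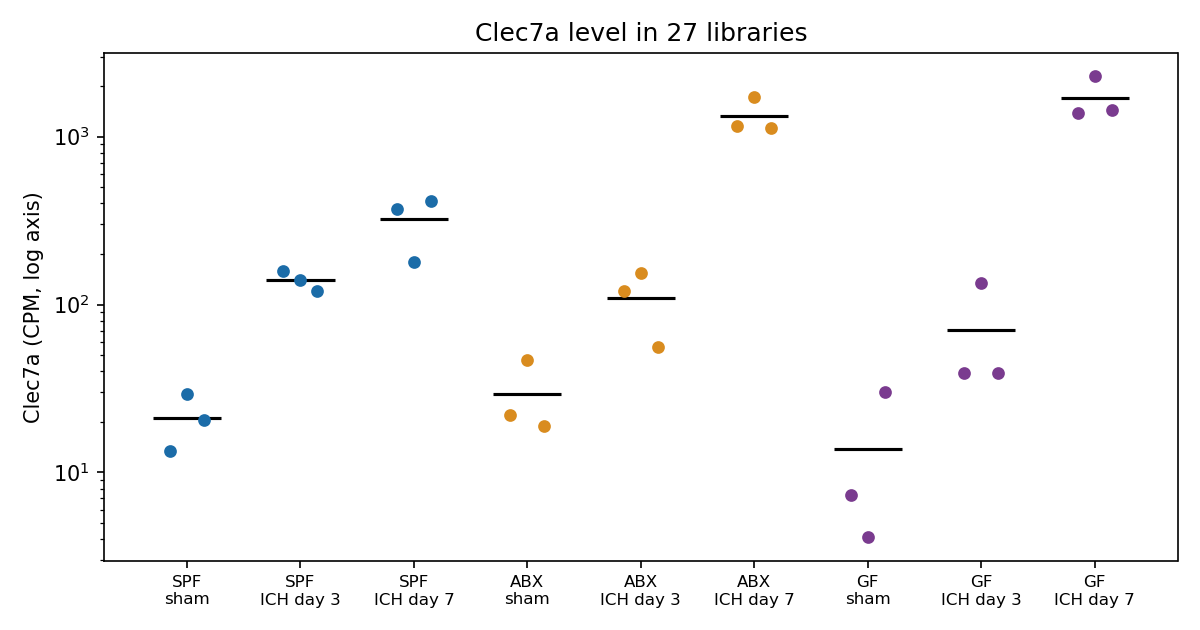
Clec7a level in CPM on a log axis, with 1 point for each of the 27 libraries by group and a bar at the group mean. The 6 libraries of ABX and GF ICH day 7 lie between 1127 and 2296 CPM, above the SPF ICH day 7 libraries, which reach 411 CPM.

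Against sham, the day 7 rise of Clec7a passed the edgeR test in all 3 conditions. The log2 fold change was 3.94 ± 0.70 (SE) in SPF mice (adjusted p = 0.0146), 5.51 ± 0.75 in ABX mice (adjusted p = 0.000256) and 6.95 ± 0.80 in GF mice (adjusted p = 1.75e-05). Each SE given with an edgeR fold change was derived from the test, as the absolute fold change over the square root of its F statistic. At day 3 the values were 2.73 ± 0.66 in SPF (adjusted p = 0.186), 1.92 ± 0.64 in ABX (adjusted p = 0.591) and 2.35 ± 0.65 in GF mice (adjusted p = 0.574), and none of these passed. DESeq2 did call all 3 at day 3, with adjusted p-values of 0.000727, 0.0398 and 0.0155, and limma voom called the SPF value (adjusted p = 0.0393). From day 3 to day 7 Clec7a rose in ABX mice by 3.60 ± 0.69 (edgeR adjusted p = 0.0089) and in GF mice by 4.60 ± 0.72 (adjusted p = 0.000413), while the value in SPF mice was 1.20 ± 0.63 (adjusted p = 0.971).
The ABX and GF calls against sham at day 7 held without any 1 library and under every alternative that kept all libraries. Without the 2 ABX day 7 libraries of few detected genes, replicate 3 alone was left in that group, and the ABX value was 5.00. For GF no such value exists, because all 3 day 7 libraries have few detected genes. The SPF call was lost without any 1 of the 3 SPF sham libraries (adjusted p = 0.287, 0.0969 and 0.212) and without SPF ICH day 7 replicate 1 or 3 (adjusted p = 0.0661 and 0.0788). The ABX call between days was lost without ABX ICH day 3 replicate 1 or 3 (adjusted p = 0.0877 and 0.120), with GC offsets (2.83, adjusted p = 0.0571) and with library size alone as the scaling (2.84, adjusted p = 0.0558).

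The comparison of microbiota conditions asks whether the response of antibiotic-treated or germ-free mice differs from that of SPF mice. Between shams, Clec7a differed by 0.47 on the log2 scale in ABX and -0.60 in GF against SPF mice, and at day 3 by -0.34 and -0.99, none of which passed the edgeR test. At day 7 GF mice exceeded SPF mice by 2.41 ± 0.65 (adjusted p = 0.0187), with 3 of 3 libraries above the highest SPF library. In ABX mice all 3 libraries were likewise above it, and the value was 2.05 ± 0.64 (edgeR adjusted p = 0.167), which DESeq2 called at 1.898, with an adjusted p of 0.0127, and limma voom at 2.24, with 0.00235. The test of the difference between responses, ICH day 7 minus sham in GF against the same in SPF mice, gave 3.01 ± 0.89 (edgeR adjusted p = 0.0435), and in ABX mice 1.58 ± 0.88 (adjusted p = 0.430). These comparisons share the SPF libraries.
The GF values at day 7 moved with the GC content of genes. For GF ICH day 7 against GF ICH day 3 the Spearman correlation of the log2 fold change with GC content across 1563 abundant genes was -0.73, and with offsets for GC content fitted in each library the Clec7a value of 4.60 became 2.60 (edgeR adjusted p = 0.0175). Against GF sham the correlation was -0.55, and the Clec7a value of 6.95 became 5.00 (adjusted p = 0.000264). Across the same genes, the correlation was -0.64 for GF ICH day 7 against SPF ICH day 7 and -0.62 for the difference between responses, a description across genes that share libraries. With the offsets these correlations became 0.28 and 0.23, and Clec7a was then 0.81 higher (adjusted p = 0.395) and 1.01 higher (adjusted p = 0.550). The call of GF against SPF at day 7 was also lost with library size alone (1.97, adjusted p = 0.0565) and without SPF ICH day 7 replicate 2 or GF ICH day 7 replicate 2 (adjusted p = 0.0846 and 0.0519). The call for the difference between responses held in DESeq2 (adjusted p = 0.00834) and without GF sham replicate 3 (4.29, adjusted p = 0.00426). It was lost without any 1 of the other 11 libraries compared, where the value ranged from 2.58 to 3.28, and under the other 6 alternatives (adjusted p from 0.0518 to 0.550).

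**Figure D2:**
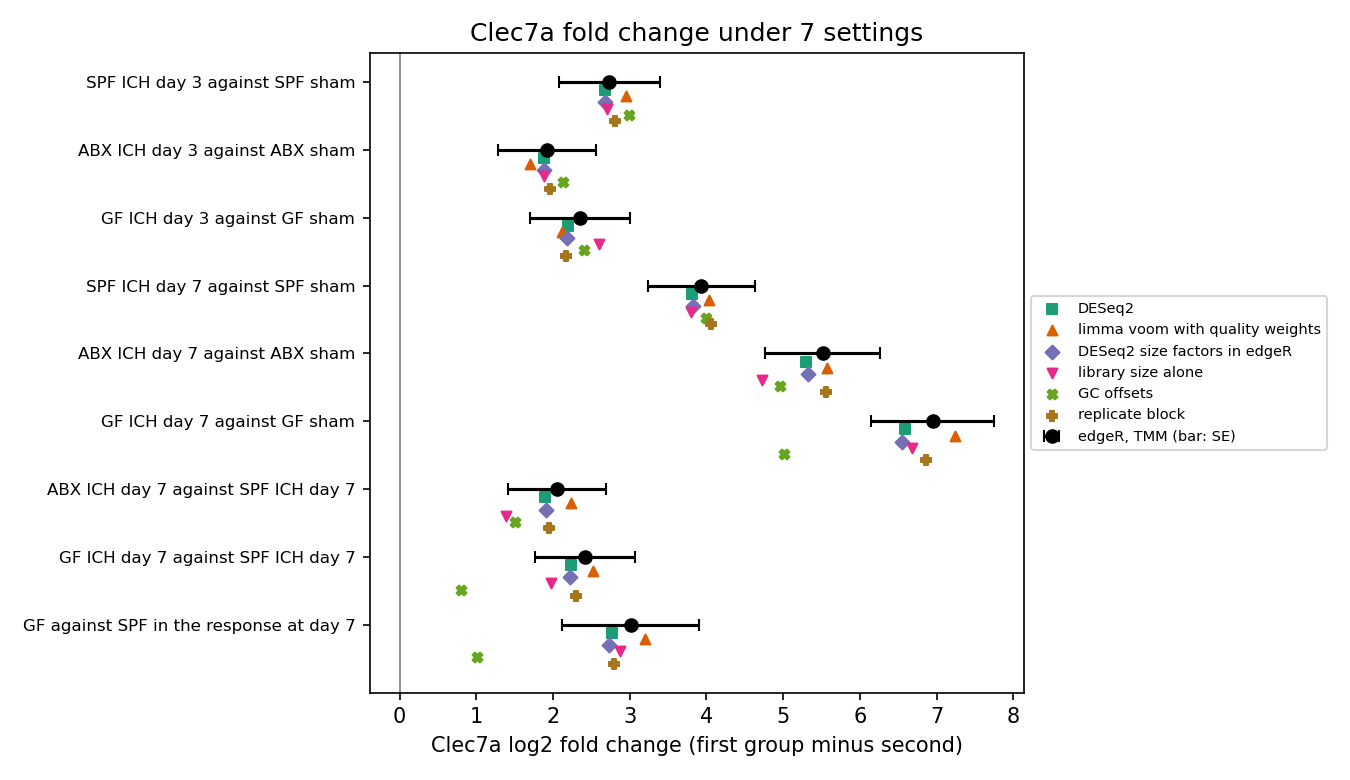
Log2 fold change of Clec7a in 9 comparisons, with the edgeR value and its SE in black and 6 alternatives as coloured symbols. All values lie above 0, and the green crosses of the GC offsets stand lowest in the 2 GF against SPF comparisons, at 0.81 and 1.01.

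Cd209a encodes a mouse homologue of DC-SIGN, which binds mannose and fucose and is carried by monocyte-derived dendritic cells. Its level in SPF mice was 0, 18.3 and 0.462 CPM in sham, 20.6, 10.01 and 18.7 CPM at day 3, and 127, 18.8 and 41.0 CPM at day 7. In ABX mice it was 0.176, 0.238 and 0.0698 CPM in sham, 15.5, 52.4 and 12.002 CPM at day 3, and 0.759, 215 and 399 CPM at day 7. In GF mice it was 2.82, 0.588 and 0.287 CPM in sham, 3.13, 20.3 and 20.1 CPM at day 3, and 470.0, 129 and 166 CPM at day 7. Cd209a was close to 0 in all ABX and GF shams, and at day 7 it was high in 5 of the 6 ABX and GF libraries, with ABX replicate 1 under 1 CPM. It rose against sham at day 7 in ABX mice (log2 fold change 10.29 ± 2.33, edgeR adjusted p = 0.0318) and in GF mice (7.70 ± 2.10, adjusted p = 0.0164), and the value in SPF mice was 3.32 ± 1.71 (adjusted p = 0.897). At day 3 the values were 7.35 ± 2.07 in ABX (adjusted p = 0.416, with DESeq2 6.68e-05 and limma voom 0.0361), 3.57 ± 1.74 in GF (adjusted p = 0.797) and 1.40 ± 1.59 in SPF mice (adjusted p = 1). The ABX call at day 7 was lost without any 1 ABX sham library (adjusted p = 0.173, 0.159 and 0.210) and with DESeq2 size factors (9.79, adjusted p = 0.0507). The GF call was lost without GF sham replicate 2 or 3 (adjusted p = 0.0607 and 0.0586) and under limma voom (adjusted p = 0.0666). The summed monocyte markers of ABX day 7 also spread widely, from 17.7 to 1031 CPM. Whether Cd209a and these markers went together library by library was not tested.

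Clec5a encodes MDL-1, an activating receptor of monocytes, macrophages and neutrophils that binds dengue virus. Its level in SPF mice was 143, 421 and 207 CPM in sham, 158, 309 and 129.7 CPM at day 3, and 367, 262 and 229 CPM at day 7. In ABX mice it was 334, 326 and 235 CPM in sham, 145, 181 and 161 CPM at day 3, and 1331, 742 and 484 CPM at day 7. In GF mice it was 1603, 139 and 195 CPM in sham, 154, 118 and 135 CPM at day 3, and 824, 1271 and 1193 CPM at day 7. Clec5a was thus well expressed without ICH, all 3 ABX and all 3 GF day 7 libraries lay above every day 3 library of the same mice, and GF sham replicate 1, a library of few detected genes, held the highest level of all 27. From day 3 to day 7 it rose in GF mice by 3.01 ± 0.68 on the log2 scale (edgeR adjusted p = 0.00601), with GC offsets 0.74 (adjusted p = 0.394). The same difference in ABX mice was 2.39 ± 0.67 (edgeR adjusted p = 0.0915), and it was called by DESeq2, with an adjusted p of 0.0103, and by limma voom, with 0.00946. Against sham at day 7 the values were 1.51 ± 0.65 in ABX (edgeR adjusted p = 0.211) and 0.76 ± 0.64 in GF mice (adjusted p = 0.377). The GF value was -0.017 with DESeq2 size factors and -0.99 with GC offsets, and without GF sham replicate 1 it was 2.71 (adjusted p = 0.00186). At day 3 against sham in GF mice the value was -2.25 ± 0.66 (edgeR adjusted p = 0.797), called lower by DESeq2 (-2.77, adjusted p = 0.0123). At day 7 the Clec5a difference of GF against SPF mice was 1.94 ± 0.65 (edgeR adjusted p = 0.0519), with all 3 GF libraries above the highest SPF library.

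Of the DCIR family genes Clec4a1, Clec4a2 and Clec4a3, the last 2 were expressed in sham microglia. Clec4a2, the inhibitory receptor DCIR, stood at 53.1, 123 and 112 CPM in SPF sham, 74.9, 88.0 and 69.1 CPM in ABX sham and 144, 159 and 66.8 CPM in GF sham. At day 3 it was 21.3, 30.7 and 23.6 CPM in SPF, 1.42, 37.0 and 20.3 CPM in ABX and 28.1, 23.6 and 19.97 CPM in GF mice. At day 7 it was 35.5, 48.5 and 33.4 CPM in SPF, 115, 268 and 10.4 CPM in ABX and 62.8, 169.5 and 0.252 CPM in GF mice. Every day 3 library was below every sham library of the same mice, and the ABX and GF libraries of day 7 scattered. The log2 fold changes at day 3 against sham, -1.93 ± 1.23 in SPF, -1.98 ± 1.23 in ABX and -2.37 ± 1.25 in GF mice, did not pass the edgeR test (adjusted p = 0.772, 0.709 and 0.797). Of the 100-base stretches of Clec4a2 transcripts, 2.14% also occur in Clec4a4, and the gene overlaps the pseudogene Gm44132 on the same strand. In this respect its counts are less certain than those of the other members. No other member shares such a stretch with another gene or overlaps one.
Clec4a3, a receptor of monocytes and macrophages in the same family, was at 128, 188 and 244 CPM in SPF sham, 83.1, 159 and 46.3 CPM at day 3 and 146, 131 and 64.4 CPM at day 7. In ABX mice it was 172, 140.2 and 187 CPM in sham, 71.5, 75.9 and 41.1 CPM at day 3 and 1.14, 226 and 33.5 CPM at day 7. In GF mice it was 382, 15.7 and 113 CPM in sham, 73.2, 71.5 and 77.0 CPM at day 3 and 571, 323 and 194 CPM at day 7. All 3 GF day 7 libraries of Clec4a3 lay above all 3 SPF day 7 libraries, and in ABX mice all 3 day 3 libraries lay below all 3 shams, with no call in edgeR. Clec4a1 reached at most 18.9 CPM and was at 0 in 6 of 27 libraries.

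Clec4d, Clec4e, Clec4n and Clec12a were scarce. Clec4d, which encodes MCL, a partner of Mincle, was at 0 in 12 libraries, among them all 3 ABX shams. In GF mice Clec4d was 0, 0 and 0.109 CPM in sham, 2.87, 25.9 and 9.49 CPM at day 3 and 69.1, 26.9 and 31.3 CPM at day 7. No library of the other groups passed 12.2 CPM, and the 3 GF day 7 libraries held the 3 highest levels of Clec4d in the series. Clec4e, which encodes Mincle, a receptor for mycobacterial cord factor and for a protein of dying cells, was at 0 in 18 libraries, the 3 SPF shams and the 3 GF day 7 libraries among them. Its highest levels were 14.0, 9.71 and 8.16 CPM, all in SPF mice after ICH. Clec4n, the mannose-binding Dectin-2, was at 0 in 15 libraries and passed 10 CPM in 3, at 29.4 CPM in SPF ICH day 7 replicate 1, 12.7 CPM in GF ICH day 3 replicate 2 and 68.9 CPM in GF ICH day 7 replicate 2. The other GF day 7 libraries held 0 counts of Clec4n. Clec12a, an inhibitory receptor for uric acid crystals, was at 0 in 10 libraries, and its 2 highest levels were 61.1 and 79.5 CPM in ABX ICH day 7 replicates 2 and 3. Replicate 1 of that group held 0.284 CPM of Clec12a, and replicates 1 and 2 are both libraries of few detected genes.

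**Figure D3:**
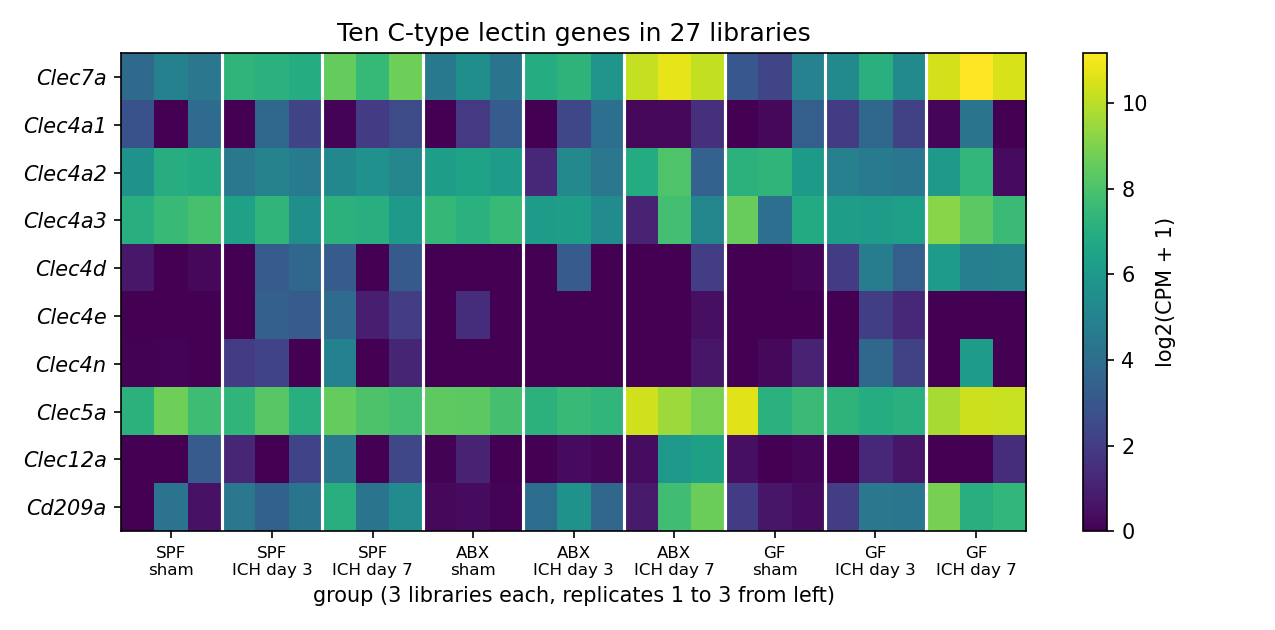
Levels of the 10 genes as log2(CPM + 1), with 1 row for each gene and 1 column for each of the 27 libraries, in blocks of 3 by group. Clec7a brightens from sham to day 7 in each condition, Clec5a and Clec4a3 are present in nearly every library, and Clec4d, Clec4e, Clec4n and Clec12a are at or near 0 in most.

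Counted over the 10 genes, the edgeR test called Clec7a alone at day 7 against sham in SPF mice (1 of 10 higher, against 0.0797% of all tested genes called higher). It called Clec7a and Cd209a in ABX (2 of 10, against 0.734%) and in GF mice (2 of 10, against 1.7%). From day 3 to day 7 it called Clec7a in ABX (1 of 10, against 0.563%) and Clec7a and Clec5a in GF mice (2 of 10, against 1.83%), and 0 of 10 in SPF mice, where 0% of all genes and 0 members at an unadjusted p under 0.05 passed, and 0 in DESeq2 and limma voom. Clec7a was the member called higher in GF against SPF mice at day 7 (1 of 10, against 1.08%) and in the GF difference between responses (1 of 10, against 0.285%).
At day 3 against sham edgeR called 0 of 10 in each condition. In SPF mice 2 members had an unadjusted p under 0.05, DESeq2 and limma voom called 1 each, and edgeR called 0.102% of all genes. In ABX mice these counts were 4, 3 and 1, against 0.125%, and in GF mice 4, 2 and 0, against 0.00569%. Between the shams edgeR called 0 of 10 in ABX against SPF (0% of all genes, 2 members at an unadjusted p under 0.05, 3 in DESeq2 and 0 in limma voom) and in GF against SPF (0.00569% of all genes, 1 member at an unadjusted p under 0.05, 0 in DESeq2 and limma voom). At day 3 it called 0 of 10 in ABX and in GF against SPF (0% of all genes each), with 2 and 0 members at an unadjusted p under 0.05, 1 and 0 in DESeq2, and 0 in limma voom. At day 7 it called 0 of 10 in ABX against SPF (0.0854% of all genes), with 2 members at an unadjusted p under 0.05 and 1 each in DESeq2 and limma voom. The differences between responses at day 3 in ABX and GF and at day 7 in ABX mice had 0 of 10 called and 0% of all genes, with 2, 1 and 2 members at an unadjusted p under 0.05, 2, 0 and 2 in DESeq2 and 0 in limma voom.
Members whose 3 ICH libraries lay above all 3 shams were Clec7a at day 3 in SPF (1 of 10, against 9.18% of tested genes), Clec7a and Cd209a in ABX (2 of 10, against 9.74%) and Clec7a, Clec4d and Cd209a in GF mice (3 of 10, against 10.8%). At day 7 they were Clec7a, Clec4e and Cd209a in SPF (3 of 10, against 5.94%), Clec7a, Clec5a and Cd209a in ABX (3 of 10, against 7.8%) and Clec7a, Clec4d and Cd209a in GF mice (3 of 10, against 5.34%). Lower without overlap at day 3 were Clec4a2 in SPF (1 of 10, against 6.98%), Clec4a2, Clec4a3 and Clec5a in ABX (3 of 10, against 10.1%) and Clec4a2 in GF mice (1 of 10, against 2.98%). At day 7 Clec7a and Clec5a were above all SPF libraries in ABX mice (2 of 10, against 6.38%), and Clec7a, Clec4a3, Clec4d, Clec5a and Cd209a in GF mice (5 of 10, against 7.19%). Clec4e lay below all SPF libraries there in ABX (1 of 10, against 18.5%) and in GF mice (1 of 10, against 24.4%), and Clec4a2 was lower than sham without overlap at day 7 in SPF mice (1 of 10, against 4.62%). The median log2 fold change of the 10 genes at day 7 against sham was 2.48 in SPF, 3.51 in ABX and 1.47 in GF mice, beside -0.03, -0.79 and -2.10 over all tested genes. These medians include the scarce Clec4d, Clec4e, Clec4n and Clec12a. In SPF mice Clec4n had 7.86, from 0.042 to 10.2 CPM. In ABX mice Clec4d had 8.90, from 0 to 1.02 CPM, and Clec4e -2.15. Of the other members in SPF mice, Clec4a1, Clec4a2 and Clec4a3 had -1.37, -1.29 and -0.71. Clec5a had 0.15, Clec7a 3.94 and Cd209a 3.32. The medians therefore do not show a rise across the 10 genes. They were also not adjusted for GC content, which is under the median of tested genes in all 10. Across 1563 abundant genes its Spearman correlation with the fold change was 0.18 in SPF, -0.27 in ABX and -0.55 in GF mice.

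Compared per kilobase of exon, the largest mean share in the summed level of the 10 genes was that of Clec4a3 in SPF and ABX sham. In GF sham it was that of Clec5a, at 39.4% beside 32.4% for Clec4a3. At day 7 it was that of Clec7a in each condition. Clec4a3 had the highest level per kilobase in all 6 SPF and ABX sham libraries, and Clec7a in all 6 ABX and GF day 7 libraries, while the 3 GF shams were led by Clec5a, Clec4a2 and Clec4a3. The SPF day 7 libraries were led by Clec7a, Clec4a3 and Clec7a. The mean share of Clec7a in the summed level was 3.09% in SPF sham, 27.2% at day 3 and 35.2% at day 7. In ABX mice it was 4.55%, 25.2% and 51.7%, and in GF mice 2.76%, 16.3% and 45.1%. The summed level per kilobase was 257 ± 83.9, 207 ± 73.0 and 349.6 ± 108 in SPF mice (sham, day 3 and day 7), 243 ± 6.48, 161 ± 50.2 and 976 ± 239 in ABX mice, and 347 ± 359, 151 ± 34.5 and 1441 ± 278 CPM per kilobase in GF mice (SD, n = 3). The sum thus stood highest at day 7 in ABX and GF mice.

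**Figure D4:**
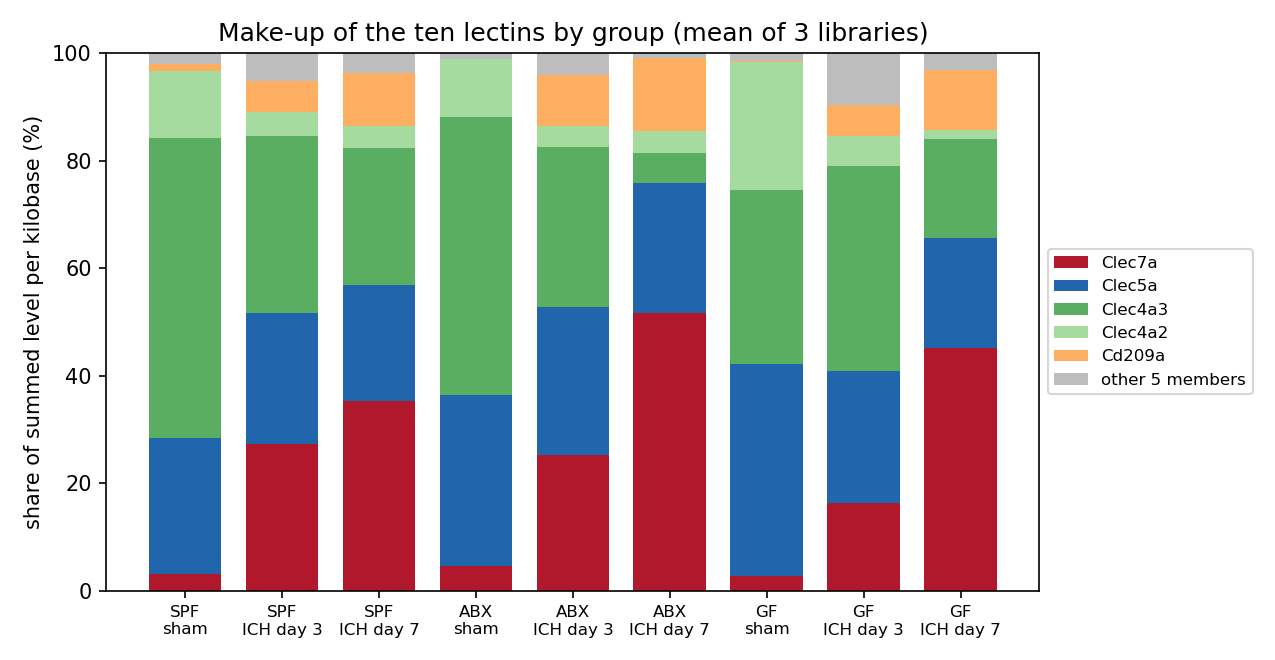
Share of each gene in the summed level per kilobase of the 10 genes, in percent, as the mean of 3 libraries by group. The Clec7a segment at the base grows from under 5% in each sham group to 35.2%, 51.7% and 45.1% at day 7, and the Clec4a3 segment shrinks.

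Of 3 listed adaptor genes, Fcer1g and Tyrobp were abundant in every group and Hcst was not. Syk and Card9, from the list of signalling genes behind activating lectins, were not abundant either. Fcer1g, the FcR gamma chain that carries the signal of Dectin-2 and Mincle, was at 1949 CPM in SPF sham and 2845 CPM at SPF day 7, 2509 and 5141 CPM in ABX mice, and 2308 and 3366 CPM in GF mice. Tyrobp, which encodes DAP12, the partner of MDL-1, was at 1573 and 2451 CPM in SPF, 1888 and 3920 CPM in ABX and 2992 and 4278 CPM in GF mice in the same groups. None of these day 7 differences passed the edgeR test (log2 fold changes from 0.52 to 1.05). Hcst, which encodes the adaptor DAP10, had group means from 7.74 CPM in ABX sham to 61.8 CPM at GF day 7, and it did not pass against sham in any condition. Syk, the kinase behind Dectin-1, was at 25.1, 51.1 and 14.5 CPM in SPF sham and 22.7, 15.1 and 14.4 CPM at SPF day 7. In ABX mice Syk was 8.28, 11.1 and 15.9 CPM in sham and 0, 0.108 and 1.26 CPM at day 7, and in GF mice 0.282, 65.4 and 8.26 CPM in sham and 0, 9.40 and 0.0841 CPM at day 7. Card9, which links Syk to NF-kappaB, was 0.161, 69.0 and 9.91 CPM in GF sham and 0, 0.150 and 0 CPM at GF day 7, and 11.8, 16.8 and 20.02 CPM in ABX sham and 0.569, 0 and 0.893 CPM at ABX day 7. Card9 fell in GF mice at day 7 against sham (log2 fold change -8.96 ± 2.86, edgeR adjusted p = 0.0374), while Syk did not pass in ABX (-4.67, adjusted p = 0.211) or GF mice (-2.96, adjusted p = 0.241). The 6 ABX and GF day 7 libraries, highest in Clec7a, held at most 1.26 CPM of Syk apart from GF replicate 2, which had the most Clec7a and 9.40 CPM of Syk. Of these 6 libraries, 5 had few detected genes.
Of 14 genes of the pathway behind activating lectins, 3 fell at GF day 7 against sham (Card9, Fyn and Plcg2), where 12.7% of all tested genes were called lower, with a list median of -1.94 beside -2.10 over all genes. Of 3 phosphatases behind inhibitory lectins, Ptpn11 fell, and of 8 tested transcription factors downstream, Rela and Nfatc1 fell there and Nfkb1 fell at ABX day 7 (-6.37, adjusted p = 0.0267), where 0.211% of all tested genes were called lower. Among 6 tested target genes, Il1b, the interleukin 1 beta gene, rose at GF day 7 (0.363 to 120 CPM, log2 fold change 8.35 ± 2.28, edgeR adjusted p = 0.0164), and Ccl3, a chemokine gene, rose at ABX day 7 (55.4 to 422 CPM, 2.93 ± 0.69, adjusted p = 0.0403). Called higher in these comparisons were 1.7% of all tested genes in GF and 0.734% in ABX mice. Lgals9, which encodes galectin-9, a ligand reported for Dectin-1, fell at GF day 7 (826 to 101 CPM, -3.04 ± 0.85, adjusted p = 0.0191).

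**Figure D5:**
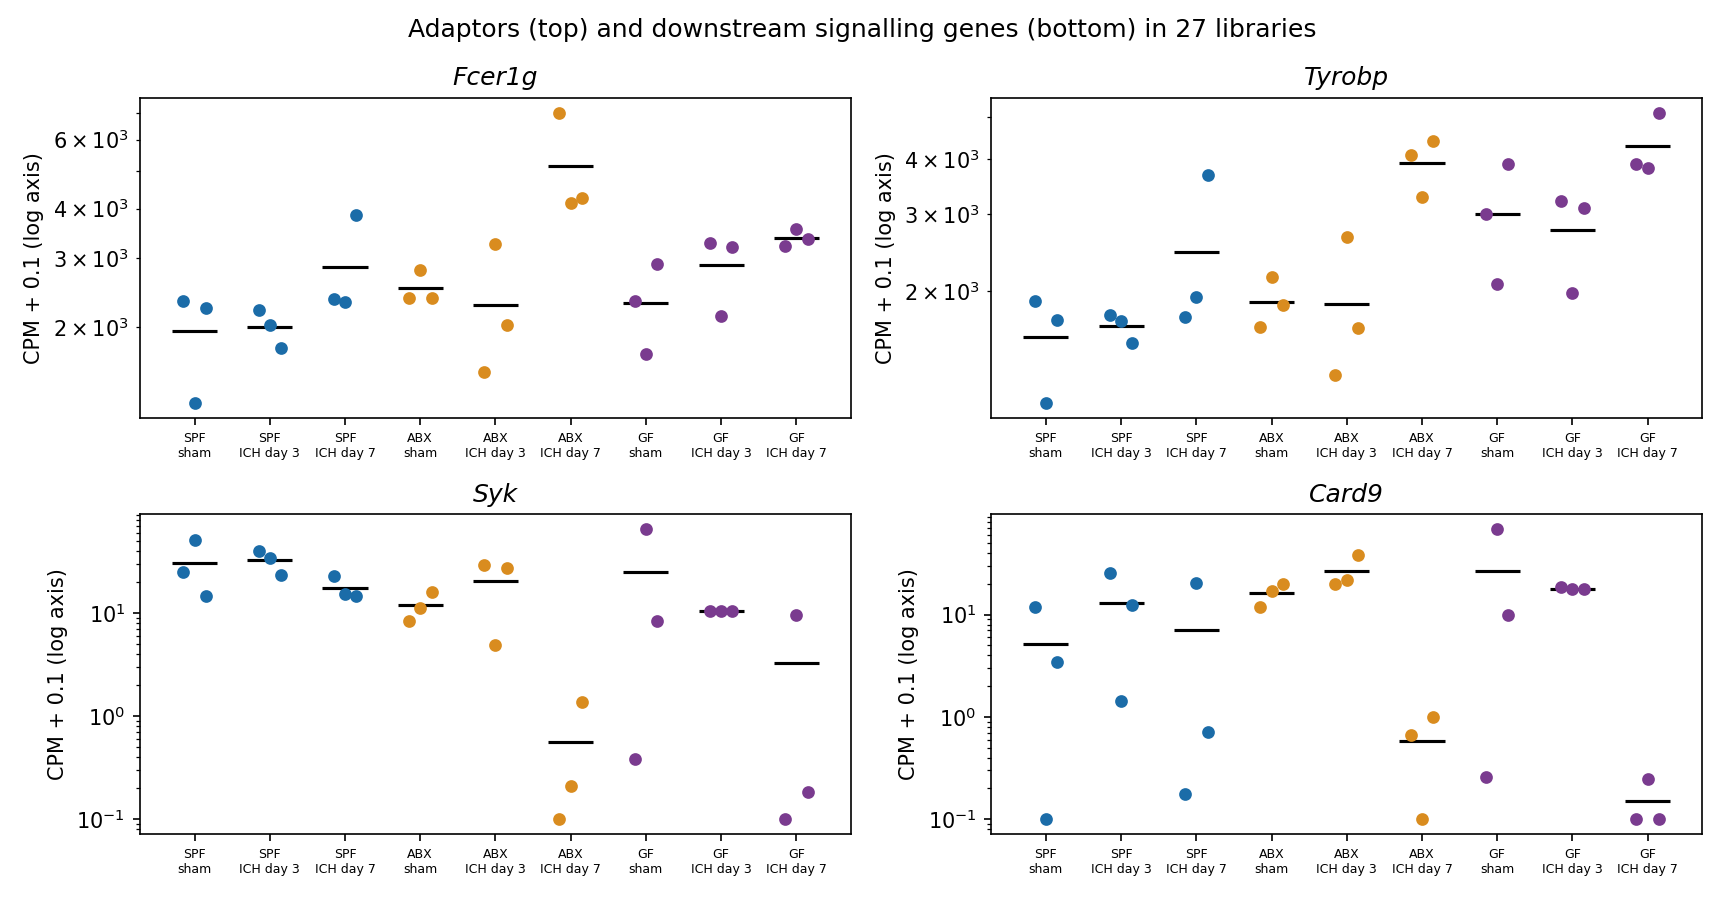
Levels of Fcer1g, Tyrobp, Syk and Card9 as CPM + 0.1 on log axes, with 1 point for each of the 27 libraries and a bar at the group mean. Fcer1g and Tyrobp are abundant in every library, while Syk and Card9 lie between 0 and 9.40 CPM in the ABX and GF day 7 libraries.

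Other lectin genes near Clec7a passed 10 CPM in few libraries. In the Dectin-1 cluster of 7 listed genes over 164 kb, Clec7a passed 10 CPM in 25 libraries, Clec12a in 3, Clec1a and Clec1b in 1 each, and Clec9a, Clec12b and Olr1 in 0. In the Cd209 cluster of 6 listed genes, Cd209a passed 10 CPM in 17 libraries and the other 5 in 0. In the Dectin-2 cluster, Clec4a3 passed it in 26 and Clec4a2 in 25 of 27 libraries. Of 15 tested genes in a list of 29 other C-type lectins, Cd302 rose at GF day 7 against sham (61.5 to 438 CPM, 2.83 ± 0.56, edgeR adjusted p = 0.00216), with a list median of -0.53. In that comparison 1.7% of all tested genes were called higher.

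Markers of other cell types varied beside the lectins, and their part in the results was not tested. The summed level of 10 microglia markers was 33779 to 47948 CPM at SPF day 7 against 49299 to 62726 CPM in sham, 57697 to 113742 against 52790 to 63578 CPM in ABX mice, and 45866 to 74114 against 43282 to 99109 CPM in GF mice, and 0 markers were at 0 in all 3 libraries of any group. At day 3 this sum was 21305 to 48970 CPM over the 3 conditions. Within that list Tmem119, Cx3cr1, Csf1r and Olfml3 fell at GF day 7 (4 of 10, against 12.7% of all tested genes). Gpr34 rose there (1 of 10, against 1.7%). P2ry12 and Gpr34 fell at day 3 in ABX mice, where 0.0228% of all tested genes were called lower.
The sum of 10 monocyte markers was 718 to 2154 CPM at GF day 7 against 6.14 to 616 CPM in GF sham, 17.7 to 1031 against 13.6 to 19.8 CPM in ABX mice, and 71.0 to 212 against 21.1 to 40.1 CPM in SPF mice. In GF mice those that passed as higher at day 7 included Ccr2, Plac8, Fn1 and Ms4a4c, where 1.7% of all tested genes were called higher. F13a1, which is also in the border-associated macrophage list, passed as lower, as did 12.7% of all tested genes. Ly6i was at 0 in all 3 GF day 7 libraries. Ccr2, which guides monocytes into tissue, was at 0.880 CPM in GF sham and 419 CPM at GF day 7. At day 7 the ABX library with under 1 CPM of Cd209a had 1152 CPM of Clec7a. The monocyte sum of ABX day 7 ranged down to 17.7 CPM, and it was not matched to Cd209a library by library.
Neutrophil markers, 10 in the list, summed to 920 to 3573 CPM at GF day 7 against 208 to 895 CPM in GF sham, while the ranges overlapped in SPF mice (104 to 124 against 43.0 to 401 CPM) and in ABX mice (50.3 to 249 against 84.1 to 175 CPM). Cxcr2, a chemokine receptor of neutrophils, passed as higher at GF day 7, from 0 in all 3 shams to a mean of 79.6 CPM (edgeR adjusted p = 0.0383), and Mmp9 was at 0 in all 3 GF day 7 libraries. Border-associated macrophage markers, 9 in the list, summed to 127 to 308 CPM at SPF day 7 against 5.26 to 122 CPM in sham, 3.46 to 216 against 27.6 to 50.3 CPM in ABX mice and 72.3 to 177 against 42.5 to 1169 CPM in GF mice. Mrc1, the mannose receptor of these macrophages and a C-type lectin itself, had means of 1.39 CPM in sham and 19.9 CPM at day 7 in SPF, 6.78 and 15.4 CPM in ABX, and 5.19 and 5.39 CPM in GF mice, and did not pass.
Dendritic cell markers, 6 in the list, summed to 30.1 to 43.3 CPM at day 3 against 1.00 to 5.83 CPM in sham in SPF mice, 34.4 to 67.7 against 1.57 to 11.0 CPM in ABX mice, and 21.9 to 104 against 0.806 to 54.9 CPM in GF mice. At day 7 they summed to 3.11 to 54.1 CPM in SPF, 3.66 to 12.1 CPM in ABX and 0.0752 to 190.1 CPM in GF mice, with Flt3 and Ciita at 0 in all 3 GF libraries. Their day 3 sums thus lay above sham without overlap in SPF and ABX mice, as did those of the monocyte and border-associated macrophage lists. Monocyte sums at day 3 were 79.2 to 120 CPM in SPF and 62.6 to 108 CPM in ABX mice. Those of border-associated macrophages were 170 to 297 CPM in SPF and 209 to 357 CPM in ABX mice. In GF mice the day 3 sums of these lists overlapped sham. The GF medians of monocyte markers were 201 CPM at day 3 and 39.5 CPM in sham. Those of border-associated macrophages were 189 and 56.1 CPM, and those of dendritic cells 60.5 and 6.92 CPM. T and NK cell markers, 8 in the list, summed to at most 43.5 CPM in every group except ABX day 7, where they reached 331 CPM.

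The 5 genes whose pattern over the 27 libraries was most like that of Clec7a, among 3542 protein-coding genes of at least 4 in mean log2 CPM, were Rtp4, Igf1, Tceal9, Tpm4 and Ccl12. Likeness was the root mean square difference in log2 CPM after each gene was centred over the libraries, and it was 1.03 for Rtp4, 1.26 for Igf1, 1.34 for Tceal9, 1.37 for Tpm4 and 1.38 for Ccl12. Igf1, a growth factor gene, was at 4.13 ± 0.473, 73.6 ± 18.8 and 204 ± 121 CPM in SPF sham, day 3 and day 7 (SD, n = 3), and at 3.47 ± 2.45, 41.7 ± 24.1 and 217 ± 106 CPM in GF mice. Igf1 rose against sham at day 7 in SPF mice (5.63 ± 0.98, edgeR adjusted p = 0.0120), in ABX mice (6.86 ± 1.04, adjusted p = 0.000801) and in GF mice (5.97 ± 0.99, adjusted p = 0.00054). All 5 genes were picked by likeness to Clec7a over these same libraries, so a rise at day 7 follows from the choice. The p-values of Igf1 are therefore no separate evidence. Rtp4, which encodes a receptor transporter protein, was at 29.2 ± 5.31 CPM in SPF sham and 491.9 ± 136 CPM at GF day 7. Of the members, Clec5a came closest among those abundant enough to be ranked, at rank 430 with 2.17, followed by Clec4a3 at 1680 and Clec4a2 at 2303.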

How the data were processed

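RNA-seq of sorted microglia was measured in 27 libraries. The deposited table holds counts per gene as whole numbers, made by the authors with cutadapt 1.9, HISAT2 2.0.4, StringTie 1.3.4d and edgeR on mm10, per the submitters' processing notes. Libraries were prepared with SMART-Seq v4, per the labels' protocols. The annotation release, strand setting and counting of mates are not given in the sources used here. Groups came from the labels. From the counts, filterByExpr of edgeR 4.0.16 (R 4.3.3) kept 17573 of 56691 genes, TMM factors ran from 0.476 to 1.31, and 1 robust quasi-likelihood fit over 9 group means gave 19 comparisons, adjusted over all tested genes. The code was tested on simulated data. CPM used TMM-scaled library sizes, and levels per kilobase used the exon union of GENCODE M21. Alternatives were DESeq2 1.42.0, limma 3.58.1 voom with quality weights, other scalings, no filter, a replicate block, GC offsets (a spline with 6 degrees of freedom over genes of at least 100 CPM), leaving out libraries, and library size alone, chosen after seeing the data. The rule names all 10 members, Syk, Card9, Fcer1g, Tyrobp and the 5 genes most like Clec7a, and allows list genes past 0.05 against sham. Mrc1, Hcst, Clec1a, Clec1b, Clec9a, Clec12b and Olr1 were named after their values were seen. Members and lists were chosen with earlier results of these data known. A listed marker gene is not reported here.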

Additional observations from a re-analysis of the deposited data

Results flagged for a closer look

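The response of Clec7a at day 7 differed between GF and SPF mice by the test of that difference, with ICH day 7 minus sham 3.01 higher on the log2 scale in GF mice (edgeR adjusted p = 0.0435). In GF mice 3 of 3 ICH libraries lay above all shams, and so did 3 of 3 in SPF mice. Over the alternatives that kept all libraries the value ranged from 1.01 with GC offsets to 3.20 under limma voom, and with 1 library left out from 2.58 to 4.29. The call was kept in 1 of these 7 alternatives (adjusted p up to 0.550) and in 1 of 12 cases with 1 library left out (adjusted p up to 0.120).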

How the results depend on the processing

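Counts of called members are given as counts of the 10. At day 3 against sham DESeq2 called 1 in SPF, 3 in ABX and 2 in GF mice, limma voom 1 in SPF and 1 in ABX, and edgeR 1 in SPF without the libraries under 12000 detected genes, where the main counts were 0. At day 7 against sham in ABX mice DESeq2 called 4 and DESeq2 size factors gave 1. From day 3 to day 7 DESeq2 called 4 and limma voom 2 in ABX mice, limma voom 4 in GF mice, GC offsets gave 0 in ABX and 1 in GF mice, and library size alone gave 0 in ABX mice. Against SPF mice DESeq2 called 3 in ABX sham, 1 in ABX at day 3, 1 in ABX and 2 in GF at day 7, and 2 each in the ABX difference between responses at day 3 and day 7, and limma voom called 1 in ABX and 3 in GF mice at day 7. In GF against SPF at day 7, GC offsets and library size alone gave 0. In the GF difference between responses at day 7, limma voom, DESeq2 size factors, no filter on low counts, GC offsets and library size alone gave 0. The replicate block gave 2 called members in GF against SPF at day 7 and 0 in the GF difference between responses, and changed no other count by over 1.5 times. Same-numbered libraries had a median correlation of deviations of 0.004, with a range from -0.39 to 0.29 and 13 of 108 pairs over 0.1. Of 27 libraries, 9 correlated best with their own number. A median near 0 cannot exclude that some same-numbered libraries were paired. Leaving out 1 library gave 0 to 1 in SPF day 7 against sham, 1 to 2 in ABX day 7 against sham, 0 to 2 in ABX day 7 against day 3, 0 to 1 in GF day 3 against sham, 1 to 3 in GF day 7 against sham, and 0 to 1 in GF against SPF at day 7 and in the GF difference between responses at day 7. Without the libraries under 12000 detected genes, ABX ICH day 7 and GF sham each kept replicate 3 alone. An arm left with 1 or 2 libraries shares the spread of the other groups. Direction reversed for Clec5a in GF day 7 against sham (-0.017 with DESeq2 size factors, -0.99 with GC offsets), and for Clec7a in ABX against SPF sham (from -0.044 to 0.79 over the libraries left out, negative without ABX sham replicate 2), in GF against SPF sham (0.54 without the libraries under 12000 detected genes) and in the GF difference between responses at day 3 (from -1.24 to 0.90, positive without GF sham replicate 3), none of them called. Of the other values of single genes, 442 kept their direction and their side of the threshold, 38 no longer passed it and 20 newly passed it. The cause of these shifts was not tested, and GF day 7 comparisons had no value without the libraries of few detected genes.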
